A study of Homo sapiens with 6 samples.

Results

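The solute carriers (SLC) are membrane proteins that move sugars, amino acids, ions, metals, vitamins and nucleotides across the plasma membrane and across the membranes of mitochondria, lysosomes and the Golgi. The genes described here were the rows of an HCT-116 expression table whose whole gene name was an SLC symbol, selected on their mean level of at least 1 FPKM over 6 libraries. FPKM counts the fragments of a gene per length of its transcript, scaled to the mapped fragments of the library. Of 27918 rows in the table, 292 had such a name, 290 remained after SLC7A11 and SLC30A1 were set aside, and 148 reached the level. SLC19A1 had 2 rows, of which 1 did. These 148 genes belonged to 40 SLC families. The level over all libraries chose the genes, so their levels are a description. The level limit does not use the difference between the groups, but the genes and the pair set aside were chosen with earlier results of these data known.

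SLC families are numbered by sequence relationship, and the members of a family often carry related substrates. Most are secondary transporters, which couple the movement of one solute to the gradient of another, or facilitators that let a solute run down its own gradient. In tumor cells of the colon they are best known for supplying glucose, amino acids and folate and for exporting lactate. The mitochondrial SLC25 carriers connect the cytosol with the matrix, the SLC35 carriers bring activated sugars into the Golgi and endoplasmic reticulum, and the SLC39 and SLC30 families move zinc into and out of the cytosol.

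HCT-116 is an established line of human colorectal carcinoma cells. The libraries came from cells transfected at 10 nM with a GapmeR, an antisense oligonucleotide whose DNA core, between modified ends, lets RNase H cut the RNA it pairs with. Of the 6 libraries, 3 were labelled with the control GapmeR (GapNC) and 3 with a GapmeR against the long noncoding RNA CASC9 (GapC9). The study's methods give a harvest 48 h after transfection and its results 24 h for this experiment. The sources do not say whether the replicates were separate cultures, so p-values measure the spread between these libraries, which may be technical. One cell line and 1 GapmeR against CASC9 were used, and effects through CASC9 cannot be told apart from other effects of that oligonucleotide.

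Low values of loci with a single transcript came in steps that, taken as 1 fragment, gave 22750000 to 24380000 fragments a library. CASC9 was listed at 0 in GapNC replicates 1 and 3 and at 0.0108 FPKM in GapNC replicate 2, and at 0.0528, 0.107 and 0 FPKM in GapC9 replicates 1, 2 and 3. The target was thus close to undetected and not lower under its own GapmeR, so it gives no check of the labels. Each direction below rests on the labels, and GapNC and GapC9 name the libraries labelled so. The epithelial markers EPCAM, KRT8, KRT18, KRT19 and CDH1 were present in every library, while the intestinal markers CDH17, VIL1 and CDX1 did not exceed 0.0481 FPKM. The summed leukocyte markers were at most 0.0299 FPKM and the endothelial ones at most 0.0827 FPKM. The summed fibroblast markers, mostly COL3A1 and COL1A1, were at 4.19 to 5.72 FPKM in GapNC and 4.41 to 5.31 FPKM in GapC9. GapNC replicate 1 stood apart from the other libraries: it held more of the GC-rich transcripts, as shown beside the results, and was the highest library for 65 of the 148 SLC genes.

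The levels of the SLC genes spanned a wide range, with a median of 4.59 FPKM. Of the 148 genes, 5 had a mean of at least 50 FPKM, 40 of at least 10 FPKM, and 31 stayed under 2 FPKM. SLC7A5, the light chain of the large neutral amino acid exchanger, had the highest mean at 300.0 FPKM, followed by the mitochondrial ADP/ATP carrier SLC25A5 at 210.5 FPKM. At the lower limit, SLC44A3 had a mean of 1.01 FPKM, SLC16A6 of 1.01 FPKM and SLC9A7 of 1.06 FPKM, and just outside were SLC38A3 at 0.976 FPKM, SLC24A1 at 0.966 FPKM and SLC16A13 at 0.898 FPKM. None of the 148 genes was listed at 0 in any library, and 7 had a mean under 1 FPKM in one of the groups. Of these, SLC9A7 was under it in GapNC and the others in GapC9, so each reached the limit only through the other group. SLC35F3, SLC44A3, SLC22A31, SLC31A2 and SLC43A2 count below among the genes separated as lower, and SLC35F3 also among the calls. All 148 passed the filter of the test, a mean of at least 0.1 FPKM. Together they made up 1.12% to 1.17% of the summed FPKM in GapNC and 1.11% to 1.14% in GapC9.

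Between the groups, more SLC genes were lower than higher in GapC9. With limma on log2(FPKM + 0.1), fitted to all 16028 genes tested and adjusted over them by the Benjamini-Hochberg method, 17 SLC genes fell and 1 rose at an adjusted p under 0.05. Over all genes tested, 5.1% fell and 1.89% rose, and among all 10229 genes with at least 1 FPKM, which is the level that the SLC genes had to reach, 6.95% fell. By the thresholds of the study, a ratio of mean FPKM of at most 0.5 or at least 2 with an unadjusted p under 0.05, 10 SLC genes passed as lower and 1 as higher, beside 4.32% and 2.1% of all genes tested. All GapC9 values were below all GapNC values for 51 SLC genes and above them for 11, beside 21.6% and 12.6% of all genes tested. Among the 10229 genes with at least 1 FPKM, 2528 were separated as lower and 1494 as higher. By the fold rule 3.73% of these were lower and 1.15% higher. The median log2 fold change was -0.18 for the SLC genes, -0.08 for all genes tested and -0.07 for all genes with at least 1 FPKM.

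The scale of the libraries moved these shares. After each library was set to the same median, the median of all genes tested was 0.03, and that of the SLC genes was -0.07. The calls over all genes were then 2.48% higher and 3.12% lower, and among the SLC genes 9 fell and SLC36A1 rose. By the fold rule, applied to the scaled values, 2 SLC genes were lower in place of 10, and 2 were higher. The calls also depended on single libraries. Without GapNC replicate 1, the library that stood apart, 13 SLC genes passed the adjusted p, 11 of them among the 18 called with all libraries. In that fit 570 of all 16028 genes fell and 240 rose, in place of 817 and 303. By the fold rule, 4 SLC genes in place of 10 then passed as lower. Without GapNC replicate 3 only SLC25A13 passed, while 122 of all 16028 genes were called. Leaving out GapNC replicate 2 or any of the GapC9 libraries left 0 calls among the SLC genes by limma. In those 4 fits 32 to 53 of all 16028 genes were called, so the losses were not limited to the SLC genes. At an unadjusted p under 0.05 by limma, these 4 fits had 32 to 43 SLC genes lower and 6 to 11 higher. All genes were not counted at that level in these fits. With all libraries, 42 SLC genes were lower and 10 higher at an unadjusted p under 0.05 by limma. Of all 16028 genes tested, 2700 were lower and 1457 higher at that level.

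The precision set what could be seen. The median standard error of a log2 fold change was 0.18, and the median 95% interval reached 0.44 to each side, which is 1.35-fold. For 34 SLC genes the interval lay within 1.5-fold in both directions. A gene that did not pass may thus still differ.

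**Figure D1:**
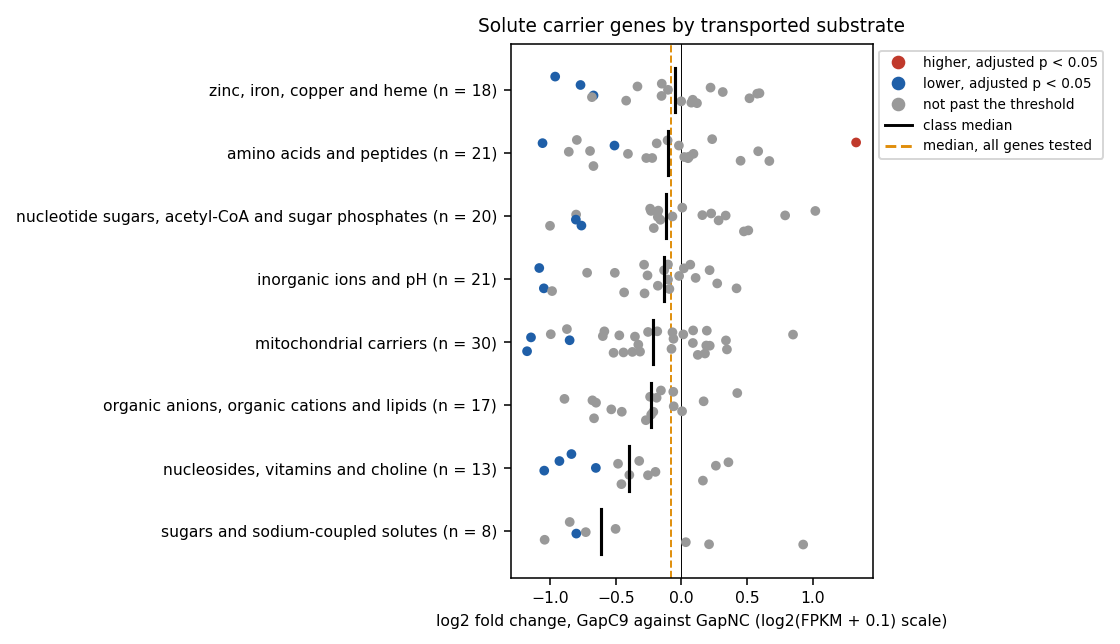
Log2 fold change of each of the 148 SLC genes (points) between the GapC9 and GapNC libraries, on the log2(FPKM + 0.1) scale. The genes are sorted by class of SLC families, with the median of each class (black bar) and of all genes tested (dashed line). The class medians run from -0.62 for sugars to -0.05 for metals, and the 1 gene that rose, SLC36A1, is an amino acid transporter.

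The genes were sorted into 8 classes by SLC family. Each class is named for substrates of its families, which a given member need not carry. The lower calls came from 7 of the 8 classes. Genes for nucleosides, vitamins and choline had 4 lower calls among 13 members, the metal transporters 3 of 18 and the mitochondrial carriers 3 of 30. The amino acid class, the inorganic ion class and the class of nucleotide sugars, acetyl-CoA and sugar phosphates had 2 each. The class of sugars and sodium-coupled solutes had 1 of 8. The carriers of organic anions, organic cations and lipids had none among 17, with 6 of them lower at an unadjusted p under 0.05. Of all 10229 genes with at least 1 FPKM, 6.95% fell by limma, and 2077 were lower at that unadjusted p. The 17 genes that fell came from 11 families, and their log2 fold changes lay between -1.18 and -0.51. In all 17 the values of the groups did not overlap, which selection by the adjusted p makes likely in advance. Of all genes tested, 21.6% were separated in this direction. GapNC replicate 1 held the highest value in 11 of them. Exons of 8 of the 17 overlap those of an annotated gene on the opposite strand, as do those of 57 of all 148, and none of the called genes has a pseudogene named for it in GENCODE.

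The stretches before the start sites of 3 of these genes are shown to give the sequence context of the gene that rose and of members that fell in GapC9, a mitochondrial carrier and a potassium-chloride cotransporter. They are RefSeq sequences of the GRCh38.p14 assembly on the strand of the gene, and they end at the RefSeq start or, for SLC25A13, where its first GENCODE exon begins. Capitals mark a CCAAT box, a GC box with the letters GGGCGG or an E-box. The E-box searched for was CACGTG, and each motif was sought on both strands. SLC36A1 lies on the plus strand and its stretch spans chr5:151436796-151437045, SLC25A13 lies on the minus strand with chr7:96322148-96322348, and SLC12A7 lies on the minus strand with chr5:1112064-1112313.
SLC36A1: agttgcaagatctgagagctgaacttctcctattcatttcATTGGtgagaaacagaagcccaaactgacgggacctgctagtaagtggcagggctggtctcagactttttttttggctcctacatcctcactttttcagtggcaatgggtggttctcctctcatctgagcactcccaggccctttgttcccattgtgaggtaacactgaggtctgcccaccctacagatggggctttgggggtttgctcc
SLC25A13: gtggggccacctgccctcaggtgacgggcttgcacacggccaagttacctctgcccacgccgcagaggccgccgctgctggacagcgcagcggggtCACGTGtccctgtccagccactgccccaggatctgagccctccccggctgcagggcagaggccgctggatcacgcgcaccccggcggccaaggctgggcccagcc
SLC12A7: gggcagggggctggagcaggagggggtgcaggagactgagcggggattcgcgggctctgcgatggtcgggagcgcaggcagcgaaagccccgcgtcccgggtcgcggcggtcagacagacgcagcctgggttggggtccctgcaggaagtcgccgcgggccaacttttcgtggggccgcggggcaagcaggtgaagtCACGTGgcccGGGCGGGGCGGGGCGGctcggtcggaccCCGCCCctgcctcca

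The SLC36A1 stretch held 1 CCAAT box and no GC box or E-box, while over the 2 RefSeq windows of this gene 1 held a GC box and 1 an E-box. The SLC25A13 stretch held 1 E-box, and the SLC12A7 stretch 4 GC boxes, some of which overlap, and 1 E-box. RefSeq windows of 300 bases, from 250 before to 50 after the start, were found for 119 of the 148 SLC genes, 179 windows in all. A GC box was present in 72.6% of them and in 45.0% of all 35116 windows of the table, an E-box in 15.1% and 7.26%, and a CCAAT box in 34.6% of each. The SLC windows had a median GC content of 66.7%, beside 58.7% for all windows. The set of all windows was not limited to expressed genes, as the SLC genes were. These differences are thus not shown to be particular to SLC genes. Of the 19 windows of 13 genes that fell, 14 (73.7%) held a GC box, 5 (26.3%) an E-box and 2 (10.5%) a CCAAT box. Some of these windows belong to the same gene, and the counts are small. A match describes the letters and does not show that a factor binds there.

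Among the 21 amino acid and peptide transporters, SLC36A1 rose and SLC38A10 and SLC7A6 fell, and the most abundant genes showed no call. SLC36A1 encodes a proton-coupled exporter of small amino acids in the lysosomal membrane. It lies in GRCh38 at chr5:151437046-151492381 and measured 1.11, 0.904 and 1.02 FPKM in GapNC and 2.51, 2.64 and 2.94 FPKM in GapC9. Its highest GapNC value was thus less than its lowest GapC9 value, with a small spread in each group. The log2 fold change was 1.33 ± 0.13 (SE, n = 3 libraries a group) with an adjusted p of 0.0159 by limma. Leaving out single libraries gave adjusted p values from 0.0257 to 0.0741 at log2 fold changes from 1.26 to 1.39, and only the fit without GapNC replicate 1 passed. Its family member SLC36A4 measured 1.67 ± 0.40 FPKM (SD, n = 3) in GapNC and 1.62 ± 0.05 FPKM in GapC9.

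SLC38A10, of the family of sodium-coupled neutral amino acid transporters, measured 11.2, 7.43 and 7.67 FPKM in GapNC and 4.38, 4.71 and 3.28 FPKM in GapC9. It fell by 1.06 ± 0.22 on the log2 scale (SE, adjusted p = 0.0454 by limma), and with each single library left out its adjusted p was 0.0689 to 0.133. The other members of its family did not pass. SLC38A2, a glutamine and alanine transporter that cells induce when amino acids are scarce, was at 25.8, 27.4 and 31.8 FPKM in GapNC and at 34.1, 66.8 and 39.9 FPKM in GapC9. The groups do not overlap, but GapC9 replicate 2 was far above the other GapC9 libraries. SLC38A1 overlapped between the groups, at 17.5 ± 2.07 and 16.2 ± 6.20 FPKM.

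SLC7A6 forms an exchanger of cationic and neutral amino acids with the heavy chain SLC3A2. It fell, from 6.78, 7.23 and 7.20 FPKM in GapNC to 4.90, 4.77 and 5.13 FPKM in GapC9. Its exons overlap those of SLC7A6OS on the opposite strand, and the sources do not say whether strand was used in counting. SLC7A5, the light chain with the highest level, was at 117, 343 and 303 FPKM in GapNC and at 363, 334 and 339 FPKM in GapC9. GapNC replicate 1 thus held well under the level of the other 5 libraries, and the groups overlap. The heavy chain SLC3A2 did not follow it there, with 77.0 FPKM in GapNC replicate 1 and 49.5 to 66.2 FPKM elsewhere. SLC1A5, the glutamine importer, was at 48.5 ± 17.9 FPKM in GapNC and 43.3 ± 2.93 FPKM in GapC9.

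The cationic amino acid importer SLC7A1 was at 32.6, 31.5 and 31.4 FPKM in GapNC and at 12.6, 20.6 and 20.6 FPKM in GapC9. Its groups do not overlap, but it did not pass the adjusted p. SLC7A2, of the same family, was likewise separated at 4.33 ± 0.52 and 2.47 ± 0.49 FPKM without passing. The creatine transporter SLC6A8 measured 16.4 ± 3.52 FPKM in GapNC and 12.2 ± 0.88 FPKM in GapC9, and the taurine transporter SLC6A6 8.51 ± 2.80 and 7.24 ± 2.94 FPKM.

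Of the 30 SLC25 genes, SLC25A11, SLC25A13 and SLC25A43 fell and none rose. SLC25A13 encodes citrin, the carrier that exports aspartate from the matrix in exchange for glutamate as part of the malate-aspartate shuttle. It lies at chr7:96120220-96322147 and was at 6.05, 6.03 and 6.27 FPKM in GapNC and at 2.66, 2.76 and 2.71 FPKM in GapC9. The spread between replicates was small, with SDs of 0.13 and 0.05 FPKM. SLC25A13 fell by 1.15 ± 0.10 on the log2 scale (SE, n = 3, adjusted p = 0.0147 by limma), and with single libraries left out the adjusted p was 0.0213 to 0.0652. The paralog SLC25A12, the other aspartate-glutamate carrier, was at 4.64 ± 0.72 and 3.84 ± 0.21 FPKM and did not pass. In each GapNC library SLC25A13 was above SLC25A12, and in each GapC9 library below it.

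SLC25A11, the carrier that exchanges oxoglutarate for malate in the same shuttle, was at 18.0, 14.0 and 10.9 FPKM in GapNC and at 8.11, 5.07 and 5.60 FPKM in GapC9. The groups are separate, although each varied more than those of SLC25A13. It fell by 1.18 ± 0.25 on the log2 scale (SE, adjusted p = 0.0485 by limma), and leaving out any library took the adjusted p to 0.0753 or more. The exons of SLC25A11 at chr17:4937130-4940251 overlap those of RNF167 on the opposite strand, and reads of the pair cannot be told apart without strand.

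SLC25A43, whose substrate is not given here, was at 5.59, 6.41 and 6.98 FPKM in GapNC and at 3.46, 3.19 and 3.70 FPKM in GapC9. It fell by 0.85 ± 0.13 on the log2 scale (SE, adjusted p = 0.0265 by limma). SLC25A17, which lies in the peroxisomal membrane and carries cofactors such as coenzyme A, passed only the fold rule, with 2.58, 4.27 and 4.22 FPKM in GapNC against 1.86, 1.74 and 1.67 FPKM in GapC9. Its log2 fold change was -0.996 ± 0.22 (SE, adjusted p = 0.0510 by limma). With single libraries left out the adjusted p was 0.0234 to 0.162 by limma. Only the fit without GapNC replicate 1, its lowest GapNC library, passed.

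The abundant mitochondrial carriers did not pass. SLC25A5, an ADP/ATP carrier, was at 256, 231 and 184 FPKM in GapNC and at 223, 211 and 158 FPKM in GapC9, with overlapping groups. Its paralog SLC25A6 was at 35.2 ± 14.1 and 23.7 ± 6.17 FPKM, and SLC25A4, the form of heart and muscle, at 9.22 ± 2.96 and 16.2 ± 1.02 FPKM. The GapC9 values of SLC25A4, 15.6, 15.5 and 17.3 FPKM lay above its GapNC values of 9.05, 12.3 and 6.35 FPKM. GENCODE lists 9 pseudogenes named for SLC25A5 and 6 for SLC25A6, so the split of reads among these copies is uncertain. SLC25A39, a glutathione carrier, was at 76.6 ± 14.4 and 56.0 ± 6.58 FPKM and the citrate carrier SLC25A1 at 38.0 ± 9.63 and 26.9 ± 2.18 FPKM. In both the highest value was that of GapNC replicate 1, and neither group pair overlaps. The iron importer SLC25A37 was at 11.5 ± 1.32 and 11.0 ± 0.61 FPKM, and SLC25A38, which supplies glycine for heme synthesis, at 16.3 ± 2.71 and 12.8 ± 3.57 FPKM.

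**Figure D2:**
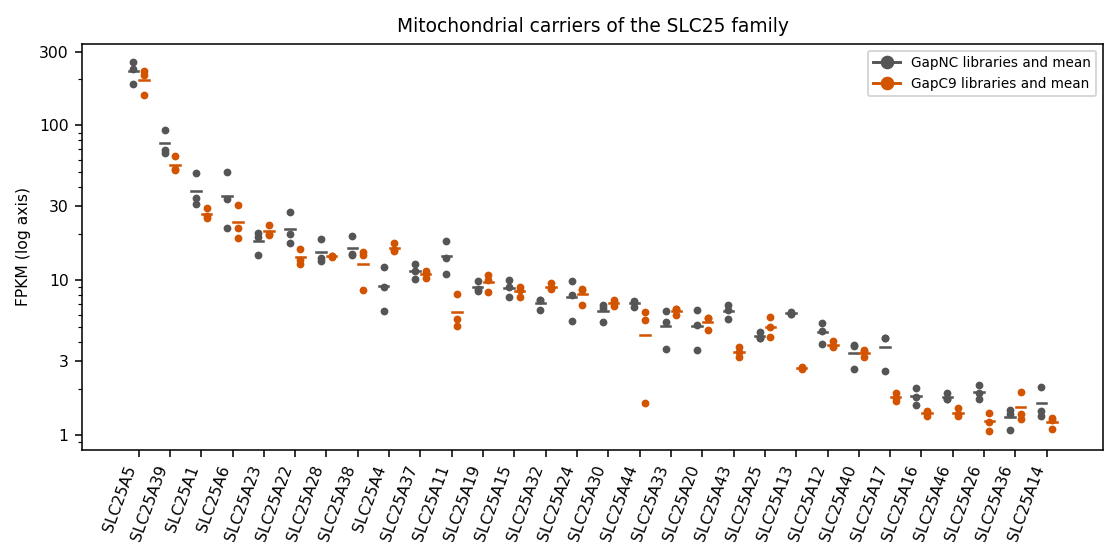
FPKM (log axis) of the 30 SLC25 genes in each GapNC and GapC9 library (points) with group means (bars), ordered by mean level. SLC25A5 lies far above the rest at 158 to 256 FPKM, and SLC25A13 shows 2 narrow, separate groups at 6.03 to 6.27 and 2.66 to 2.76 FPKM.

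Among the 13 genes for nucleosides, vitamins and choline, 4 fell and none rose, with a class median of -0.40 on the log2 scale. Both main equilibrative nucleoside transporters were among them. SLC29A1 was at 21.1, 18.6 and 18.5 FPKM in GapNC and at 12.5, 11.3 and 13.1 FPKM in GapC9. SLC29A2, which also carries nucleobases, was at 12.3, 8.87 and 7.83 FPKM in GapNC and at 5.11, 3.98 and 4.61 FPKM in GapC9, and it fell by 1.05 ± 0.20 on the log2 scale (SE, adjusted p = 0.0389 by limma). In each, all GapC9 values were below all GapNC values. The family members SLC29A3 and SLC29A4 did not pass, at 1.51 ± 0.74 and 1.67 ± 0.22 FPKM and at 2.23 ± 0.48 and 1.74 ± 0.10 FPKM.

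SLC19A1, the reduced folate carrier that also takes up methotrexate, was at 11.1, 7.78 and 8.47 FPKM in GapNC and at 5.06, 4.45 and 4.54 FPKM in GapC9. It fell by 0.93 ± 0.16 on the log2 scale (SE, adjusted p = 0.0314 by limma). Its exons at chr21:45493572-45544411 overlap those of COL18A1 on the opposite strand. The thiamine transporter SLC19A2 of the same family was at 6.12 ± 2.59 and 6.83 ± 2.74 FPKM, and the proton-coupled folate transporter SLC46A1 at 1.31 ± 0.10 and 1.84 ± 0.83 FPKM. Neither passed.

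SLC44A1, a choline transporter, was at 2.65, 3.25 and 3.75 FPKM in GapNC and at 1.64, 1.66 and 1.92 FPKM in GapC9. It fell by 0.84 ± 0.16 on the log2 scale (SE, adjusted p = 0.0409 by limma). Among these 4 genes it alone had its lowest GapNC value in replicate 1. SLC44A2 had the higher level of the family, at 16.2 ± 1.70 and 13.5 ± 0.77 FPKM, with separate groups but no call. The riboflavin transporter SLC52A2 was at 24.5 FPKM in GapNC replicate 1 and at 11.5 to 14.5 FPKM in the other 5 libraries.

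The 18 metal transporters had 3 lower calls, all in the SLC39 family, whose members bring zinc and other metals into the cytosol. SLC39A4, the zinc importer of the intestinal epithelium, was at 6.99, 4.54 and 4.51 FPKM in GapNC and at 2.81, 2.59 and 2.52 FPKM in GapC9. It fell by 0.96 ± 0.20 on the log2 scale (SE, adjusted p = 0.0449 by limma). SLC39A11 fell by 0.77 ± 0.15 (adjusted p = 0.0431), from 2.27, 1.97 and 1.77 FPKM to 1.26, 0.998 and 1.14 FPKM. SLC39A13, which moves zinc out of intracellular stores, fell by 0.67 ± 0.13 (adjusted p = 0.0410), from 5.44, 4.33 and 4.50 FPKM to 2.80, 2.89 and 3.13 FPKM. After the correction for GC content described below, its log2 fold change was -0.30 and its adjusted p 0.192 by limma. In these 3 genes GapNC replicate 1 was the highest library.

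Other SLC39 genes lay the other way without passing. SLC39A6 was at 36.4, 31.4 and 33.6 FPKM in GapNC and at 42.4, 44.4 and 60.0 FPKM in GapC9, and its partner in a zinc import complex, SLC39A10, at 6.62, 7.53 and 9.41 FPKM and at 10.4, 12.3 and 12.8 FPKM. All GapC9 values were above all GapNC values in both. SLC39A10 passed the adjusted p only after a correction for GC content, described below. SLC39A14, the most abundant metal transporter, was close between the groups at 50.9 ± 1.07 and 54.0 ± 1.85 FPKM. SLC39A1 varied within groups, at 8.26, 26.7 and 26.4 FPKM in GapNC and at 8.56, 21.7 and 25.4 FPKM in GapC9. The iron importer SLC11A2 was at 4.41 ± 0.29 and 4.05 ± 1.02 FPKM and the copper importer SLC31A1 at 2.07 ± 0.25 and 2.26 ± 0.32 FPKM.

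Of the 21 transporters of inorganic ions, SLC12A7 was among those that fell. It encodes a potassium-chloride cotransporter, which lets both ions leave the cell together and takes part in the regulation of cell volume. SLC12A7 was at 12.8, 8.97 and 9.10 FPKM in GapNC and at 5.61, 4.86 and 3.90 FPKM in GapC9, and it fell by 1.08 ± 0.20 on the log2 scale (SE, adjusted p = 0.0380 by limma). The groups do not overlap, and GapNC replicate 1 was the highest library. SLC12A8, of the same family, passed only the fold rule at a log2 fold change of -0.99 ± 0.25 (SE, adjusted p = 0.0718 by limma), with 3.33, 2.09 and 2.24 FPKM against 1.19, 1.57 and 0.951 FPKM. The sodium-coupled cotransporter SLC12A2, which brings chloride in, was at 2.83, 5.69 and 6.64 FPKM in GapNC and at 3.33, 4.91 and 5.40 FPKM in GapC9, with overlapping groups.

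The abundant ion transporters did not pass. SLC4A2, an anion exchanger that sets cell pH, was at 44.7 ± 9.37 and 37.0 ± 3.33 FPKM. The phosphate importers SLC20A1 and SLC20A2 were at 28.8 ± 3.48 and 25.5 ± 3.75 FPKM and at 6.92 ± 2.01 and 6.32 ± 0.86 FPKM. SLC41A1, a magnesium transporter, had 11.8, 8.50 and 12.8 FPKM in GapNC and 14.5, 14.6 and 14.6 FPKM in GapC9. It was the only gene of the class whose GapC9 values all lay above its GapNC values.

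In the class of nucleotide sugars, acetyl-CoA and sugar phosphates, SLC37A1 and SLC35F3 fell among 20 genes. SLC37A1, a glucose-6-phosphate antiporter of the endoplasmic reticulum, was at 3.24, 2.80 and 2.72 FPKM in GapNC and at 1.92, 1.55 and 1.58 FPKM in GapC9, and fell by 0.76 ± 0.14 on the log2 scale (SE, adjusted p = 0.0371 by limma). SLC35F3 was at 1.73, 1.84 and 1.69 FPKM in GapNC and at 0.883, 0.984 and 1.02 FPKM in GapC9, and fell by 0.80 ± 0.12 (adjusted p = 0.0271). The groups were narrow in SLC35F3, which reached the limit of 1 FPKM only through its GapNC level. Its relative SLC35F2, the most abundant of the class, stayed near one level at 35.1 ± 2.88 and 35.2 ± 0.10 FPKM. SLC37A4, the transporter that feeds glucose-6-phosphate to glucose production, was at 5.11 ± 0.79 and 4.54 ± 0.43 FPKM.

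Several Golgi carriers varied within groups more than between them. SLC35B2, which carries the sulfate donor of glycan sulfation, was at 6.83, 5.69 and 4.69 FPKM in GapNC and at 22.4, 3.65 and 19.0 FPKM in GapC9, so that 1 GapC9 library lay below all others and the other two above. The galactose donor carrier SLC35A2 was at 11.0, 2.69 and 8.53 FPKM and at 7.77, 3.21 and 7.01 FPKM, low in replicate 2 of each group. The fucose donor carrier SLC35C1 was at 9.48, 2.89 and 7.35 FPKM and at 2.53, 4.86 and 1.93 FPKM. In the acetyl-CoA transporter SLC33A1 the groups were 1.80 ± 0.47 and 2.57 ± 0.41 FPKM.

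Of the 8 genes in the class of sugars and sodium-coupled solutes, SLC45A3 fell, and the class median of -0.62 was the lowest. SLC45A3 was at 5.27, 4.07 and 4.31 FPKM in GapNC and at 2.40, 2.67 and 2.60 FPKM in GapC9, and fell by 0.80 ± 0.14 on the log2 scale (SE, adjusted p = 0.0314 by limma). SLC2A6, a hexose transporter of lysosomal membranes, passed only the fold rule, with 6.83, 3.78 and 4.46 FPKM against 2.60, 2.33 and 2.03 FPKM and a log2 fold change of -1.04 ± 0.24 (SE, adjusted p = 0.0574 by limma). The neuronal type glucose transporter SLC2A3 was at 8.63, 3.14 and 9.11 FPKM in GapNC and at 6.22, 16.4 and 17.1 FPKM in GapC9, higher in only some of the GapC9 libraries. SLC5A6, the multivitamin transporter for biotin and pantothenate, was at 12.8 ± 1.86 FPKM in GapNC and at 9.90, 8.71 and 8.40 FPKM in GapC9, with separate groups but no call.

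In the class of organic anions, organic cations and lipids no gene passed by limma, and 14 of 17 had a negative log2 fold change. Among all genes with at least 1 FPKM, 5781 of 10229 had a negative one. The lactate exporter SLC16A3 was at 52.2, 29.7 and 31.5 FPKM in GapNC and at 27.5, 19.6 and 23.4 FPKM in GapC9. The groups do not overlap, and GapNC replicate 1 was far above the rest. SLC16A1, which carries lactate in either direction, was at 17.9, 36.5 and 20.2 FPKM and at 24.2, 22.8 and 24.1 FPKM, with GapNC replicate 2 apart from the other libraries. SLC27A4, which activates and takes up long-chain fatty acids, was at 15.4 ± 3.41 and 13.1 ± 1.39 FPKM.

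The GC content of the transcripts moved with the fold change. Across the 148 SLC genes the Spearman correlation of GC content with the log2 fold change was -0.39, and across 10117 genes with at least 1 FPKM it was -0.34. Both are descriptions across genes of the same 6 libraries, and genes are not replicates. The 50 SLC genes with the lowest GC content, 36.0% to 46.0%, had a median of 0.0016 and 2 lower calls, the 49 in the middle a median of -0.16 with 7 lower calls and the 1 higher call, and the 49 with 57.3% to 67.0% a median of -0.44 and 8 lower calls. All genes with at least 1 FPKM in the same ranges had medians of 0.10, -0.10 and -0.29, and 4.76%, 9.06% and 7.57% of them fell, beside 4.0%, 14.3% and 16.3% of the SLC genes. The SLC genes had a median GC content of 52.0%, beside 49.3% for all genes of that level, and the 17 genes that fell a median of 56.6%.

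The libraries of a group differed in this respect as well. The 49 GC-rich SLC genes had a median deviation from their own 6-library mean of 0.53 on the log2 scale in GapNC replicate 1, and of 0.10 in each of the other GapNC libraries. In GapC9 replicates 1, 2 and 3 the median was -0.09, -0.27 and -0.27. Over all genes the correlation of GC content with this deviation was 0.63 in GapNC replicate 1, 0.0103 and -0.107 in the other GapNC libraries, and 0.0259, -0.344 and -0.389 in the GapC9 libraries. A curve of the deviations against GC content was then subtracted from each library, which also took out the overall offset of the library. After this, 23 SLC genes fell and 3 rose, beside 1291 (8.1%) and 1178 (7.4%) of all 15909 genes in that fit. Of the 18 calls 17 remained, with SLC39A13 the exception. The median of the SLC genes was -0.07 beside 0.02 for all genes. Median scaling, which does not use GC content, gave -0.07 and 0.03. Several genes had log2 fold changes more than 1.5 times smaller after this correction, -0.71 for SLC38A10, -0.60 for SLC39A4, -0.55 for SLC19A1, -0.66 for SLC2A6 and -0.30 for SLC39A13. The part of base composition in the differences between the groups was not tested further.

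**Figure D3:**
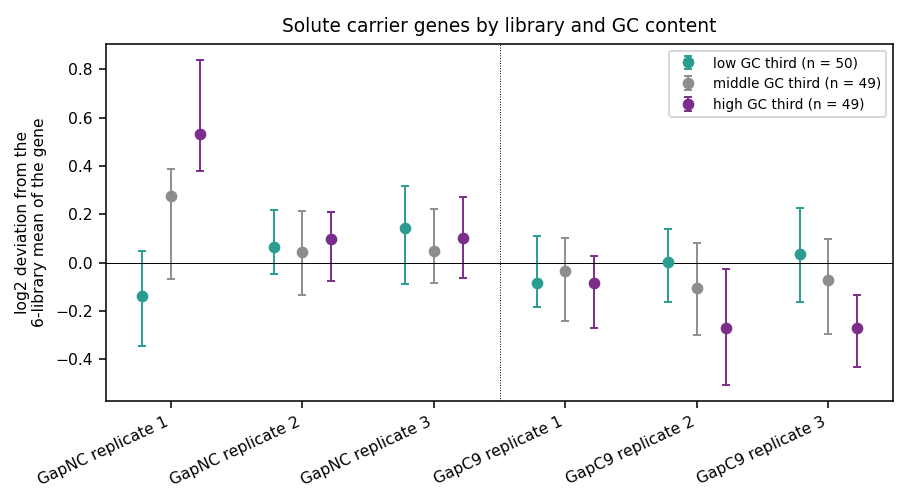
Median and interquartile range, over SLC genes, of the log2 deviation from the 6-library mean of each gene, by library and by range of GC content (50, 49 and 49 genes). The GC-rich genes stand at 0.53 in GapNC replicate 1 and at -0.27 in GapC9 replicates 2 and 3, while the medians of the genes with the lowest GC content lie between -0.14 and 0.14 in all libraries.

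Other genes of membrane transport were taken from a list of 33 partners, kinases, pumps, channels and ABC transporters, of which 29 were tested. Of these, 5 fell and 1 rose, beside 5.1% and 1.89% of all genes tested. Their median log2 fold change was -0.06, and -0.13 without SLC7A11 and SLC30A1, which the list also held and neither of which passed. Kinases of the SLC12 cotransporters were among those that fell. WNK1, which activates the kinases that phosphorylate these cotransporters, was at 14.5, 15.3 and 14.8 FPKM in GapNC and at 6.49, 6.19 and 7.28 FPKM in GapC9, and fell by 1.15 ± 0.10 on the log2 scale (SE, adjusted p = 0.0147 by limma). STK39, a direct kinase of the cotransporters, fell by 0.84 ± 0.13 (adjusted p = 0.0260), from 5.08 ± 0.59 to 2.77 ± 0.12 FPKM, while its relative OXSR1 was at 10.7 ± 0.40 and 10.8 ± 3.66 FPKM.

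Among the drug transporters, the multidrug exporter ABCC1 fell by 1.20 ± 0.17 on the log2 scale (SE, adjusted p = 0.0249 by limma), from 34.3, 26.8 and 25.1 FPKM to 13.8, 10.2 and 13.2 FPKM. ABCC3 rose by 0.55 ± 0.11 (adjusted p = 0.0446), from 1.35 ± 0.06 to 2.02 ± 0.06 FPKM. The organic anion transporter SLCO4A1 fell by 0.76 ± 0.16 (adjusted p = 0.0486). After the GC correction the log2 fold change of SLCO4A1 was -0.50. With single libraries left out, WNK1 passed in 3 of the 6 fits by limma, while STK39, ABCC1 and SLCO4A1 passed only without GapNC replicate 1. ABCC3 passed in none of them, with adjusted p values from 0.0549 to 0.161 by limma.

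The transcripts of the SLC genes were searched for sites that could pair with the oligonucleotides. In 1424 GENCODE transcripts of the 148 genes, neither GapmeR of 16 bases had a site with at most 2 mismatches. With 3 mismatches the GapmeR against CASC9 had a site in SLC25A14, SLC27A2, SLC30A4 and SLC4A2, and none of these 4 genes was called. The control GapmeR had none. Introns were not searched.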

How the data were processed

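RNA-seq of HCT-116 cells was analysed in 6 libraries, grouped by the transfection named in the sample records (GapNC and GapC9, n = 3 each). Per the labels and the study's methods, poly(A) RNA was sequenced in pairs, reads were mapped with HISAT to a human genome, and the authors deposited FPKM per gene or locus as StringTie computed it. The submitters' processing notes list HISAT2 2.0, StringTie 1.3.0 and Bowtie 0.12.2 and a mouse build. The human build and the use of strand are not given in the sources used here. An FPKM depends on the assembled transcripts, and neighboring genes can be joined in 1 row. No counts were available to the test, so depth was estimated from steps in low values only. The table held 0 columns of other samples.

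No further scaling was applied. The 16028 rows whose FPKM averaged 0.1 or more entered limma 3.58.1 in R 4.3.3 (lmFit, eBayes with a trend, two-sided) as log2(FPKM + 0.1), and p-values were adjusted over all of them by the Benjamini-Hochberg method. Only SLC rows and rows of the other transport list are reported. The added 0.1 makes the fold changes of low genes smaller than those of the FPKM values. Errors are SDs of the FPKM values or SEs from limma. GC content, positions and strand come from GENCODE 29 (GRCh38), matched by Ensembl transcript identifiers for 148 of 148 SLC genes and 99.3% of the rows tested. For the GC correction, a lowess curve (span 0.3) of the deviations against GC content was subtracted in each library, which also removes the overall offset of the library. The test was checked on simulated data, and the outcome is not reported here.

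Fold changes and p-values are given for SLC genes past the adjusted p (the 15 with the largest change in a direction), for those past only the fold rule, and for genes of the other transport list past the adjusted p. FPKM values are also given for the most abundant genes of a class, for well-known transporters, for genes beside the 1 FPKM limit and for family members of a called gene. Some genes that meet these rules are not reported here. FPKM values of a class or family outside this rule were chosen after they were seen. The SLC genes and all lists were chosen with earlier results of these data known. Alternatives were another pseudocount (1 or 0.01), other filters, median scaling, quantile normalization, GC correction, other variance settings, a replicate block and leaving out each library.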

Additional observations from a re-analysis of the deposited data

How the results depend on the processing

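The number of SLC genes lower at an adjusted p under 0.05 was 17. It became 24 with a minimum mean of 1 FPKM, 21 without rows listed at 0 in a library and 23 with the GC correction, and 4 without a filter on low values, 9 with median scaling and 9 with quantile normalization, and 0 to 12 when single libraries were left out. The number higher was 1, became 3 with the GC correction, and was 0 to 1 with single libraries left out. By the fold rule, 10 genes were lower and 1 was higher, which became 2 and 2 with median scaling and 3 and 2 with quantile normalization, and 3 were lower with the GC correction. By this rule, leaving out single libraries gave 4 to 12 lower and 1 to 3 higher genes. The median log2 fold change of -0.18 became -0.072 with median scaling, -0.0843 with quantile normalization and -0.0656 with the GC correction, and without single libraries it lay between -0.21 and -0.16. Over all genes tested, 817 fell (5.1%) and 303 rose in the main fit. The share that fell was 8.7% with a minimum mean of 1 FPKM and 6.4% without rows listed at 0. With the GC correction 8.1% fell and 7.4% rose. Without the filter 346 fell (1.24%) and 146 rose, and with median scaling 500 (3.12%) and 398. With quantile normalization 3.22% fell, and 0.0998% to 3.56% when single libraries were left out. The calls thus moved over the whole table.

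Whether the replicate numbers pair the libraries was not settled. Deviations from the group means of same-numbered libraries correlated at 0.113, 0.0362 and 0.0332 over 10229 genes. Those of differently numbered libraries correlated at -0.119 to 0.0867, and the value for replicate 1 lies above this range. The main fit did not pair the libraries. With the replicate number as a block, 0 SLC genes were higher and 0 lower at the adjusted p by limma, of 0 over all genes. In that fit 10 SLC genes were higher and 48 lower at an unadjusted p under 0.05 by limma. The main fit had 10 and 42. The whole table was not counted at this level with the block. These SLC counts thus have no background and do not show a difference particular to SLC genes. No SLC gene named with a fold change reversed its direction under any of the 17 alternatives. These genes were chosen by thresholds in the same libraries, so a reversal was unlikely in advance and the result does not test the directions. Over named genes and alternatives, 235 results kept their side of the threshold, 183 lost it and 7 gained it. Why the calls moved was not tested. In a transcript of 1 kb, 1 fragment was worth 0.0410 to 0.0440 FPKM, which limits the precision of genes near 1 FPKM.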

Other observations

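A further 28 rows joined an SLC gene with a neighbor and were not counted, since their values cannot be assigned to the SLC gene. The row of SLC2A1, the main glucose importer of tumor cells, with AC099795.1 was at 127.7, 103.2 and 116.9 FPKM in GapNC and at 108.1, 108.2 and 123.5 FPKM in GapC9, with overlapping groups. The row of SLC25A3, the mitochondrial phosphate carrier, with SNORA53 was at 45.9, 45.6 and 44.5 FPKM in GapNC and at 48.4, 48.7 and 46.8 FPKM in GapC9. The row of the dicarboxylate carrier SLC25A10 with MRPL12 and AC139530.2 was at 45.4, 29.7 and 29.7 FPKM in GapNC and at 21.6, 18.0 and 16.4 FPKM in GapC9, lower in every GapC9 library but not past the adjusted p. Of the 27 joined rows tested, only that of SLC9B2 and BDH2 passed, from 2.51 ± 0.12 to 1.56 ± 0.12 FPKM (SD, n = 3, log2 fold change -0.65, adjusted p = 0.0355 by limma).

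Below 1 FPKM lay 142 SLC rows, of which 52 were tested. SLC25A42, SLC10A7 and SLC2A13 fell among them and none rose, beside 5.1% lower and 1.89% higher over all genes tested. They are named because they are the only calls there, after their values were seen. SLC25A42, a mitochondrial carrier of coenzyme A, was at 1.27, 1.03 and 1.28 FPKM in GapNC and at 0.697, 0.483 and 0.543 FPKM in GapC9 (adjusted p = 0.0391 by limma). SLC10A7 was at 0.532, 0.619 and 0.683 FPKM and at 0.257, 0.248 and 0.261 FPKM (adjusted p = 0.0310). SLC2A13, which carries myo-inositol, was at 0.412, 0.560 and 0.626 FPKM and at 0.146, 0.174 and 0.195 FPKM (adjusted p = 0.0330).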
